A study of Rattus norvegicus with 2 samples.

Results

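The genes described here encode the subunits of the mitochondrial oxidative phosphorylation system and the assembly factors that share their names, together with the pseudogene Cox6c-ps1, which the names also take in. They were chosen by name alone, as every rat gene on the array whose symbol begins with Nduf, Cox4 to Cox8, Uqcr or Atp5, or is Sdha, Sdhb, Sdhc or Sdhd. This gave 86 genes, covered by 108 probes and 243 spots, out of 18821 named genes, 30367 rat probes and 42877 rat spots.

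The tissue was the nucleus tractus solitarius (NTS), a brainstem nucleus that receives cardiovascular and other visceral afferents, from female and male Wistar Kyoto (WKY) rats aged 9 weeks. WKY is an inbred normotensive strain, and no treatment or allele was named in the labels. One operator dissected the nucleus under a microscope, and equal amounts of RNA from 5 females made up the female pool while RNA from 5 males made up the male pool. A single-colour array was run once for each of the pools, which are called females and males below. With 1 array per sex no difference has a replicate check, no test was made, and variation between rats cannot be seen. All differences are female minus male on the log2 scale, and a level is the log2 signal of a probe relative to the 75th percentile of its array, so that 0 stands for a signal of 3380 in females and 3441 in males.

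Oxidative phosphorylation couples electron transfer to the making of ATP at the inner mitochondrial membrane. Complex I takes electrons from NADH and complex II from succinate, complex III passes them from ubiquinol to cytochrome c, and complex IV hands them to oxygen. Complexes I, III and IV pump protons, and complex V, the ATP synthase, uses the returning protons to make ATP. Neurons depend heavily on this pathway to restore ion gradients after firing. A few subunits exist as tissue isoforms, among them heart and skeletal muscle, lung and testis forms of complex IV.

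Well above background on both arrays were 85 of the 86 genes and 106 of the 108 probes. Over the whole array 15559 of 18821 named genes and 24530 of 30367 rat probes passed the same filter. Markers of the labelled tissue were present: 10 of 11 listed hindbrain and NTS genes on the array were measured, among them Dbh, which makes noradrenaline, at a level of 3.28 in females and 3.34 in males. The transcription factor gene Hoxb5, a marker of the caudal hindbrain, stood at 4.38 in females and 4.41 in males. Markers of other cells differed between the pools. All 7 measured red cell genes were lower in females, with a median of -0.55 and a summed signal of 87.3 times the 75th percentile in females against 108 times in males. Among 11 oligodendrocyte genes, 9 had the higher value in females, with a median of 0.081 and a summed signal of 26.9 in females against 25.9 in males. The 10 choroid plexus genes had a median of -0.18 and summed signals of 14.1 in females and 16.4 in males, and the 10 astrocyte genes a median of -0.070 and sums of 80.5 in females and 85.0 in males. The 11 neuron genes had a median of -0.0072 and sums of 79.1 in females and 76.2 in males, and the 8 pericyte genes a median of 0.027 and sums of 2.85 in females and 2.80 in males. The part of these cell types in the differences below was not tested, and in bulk tissue fewer cells of a type and less RNA per cell cannot be told apart.

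As a whole the genes of oxidative phosphorylation stood at nearly the same level in both pools. Of the 85 measured genes 45 were higher in females and 40 in males, a share that stands beside 45.7% higher in females among all 15559 genes measured. Their median difference was 0.0028, with an SD of 0.097 over genes, against a median of -0.014 and an SD of 0.22 over all genes. These directions hold for arrays scaled to the 75th percentile: scaled by spike-ins, the median of all genes moved to 0.66 and all 85 genes were higher in females. The set stood 0.017 above the median of all genes under both scalings, which is fixed in advance because a scaling shifts every gene of an array alike. The difference was at or within the SD of repeated spots of like brightness in 59 of the 85 genes and within 2 such SDs in 77. Over all 15559 genes these counts were 8032 and 12491. Over the 3603 other genes above the 75th percentile on both arrays they were 2007 and 3013. That spot SD was 0.068 for probes above the 75th percentile, 0.078 for those up to 16-fold below it, 0.15 from there to 64-fold below and 0.31 for dimmer probes. It covers the spotting and scanning of an array and leaves out the labelling reaction and the rats. It is the SD of single spots, so it is wider than the error of a mean over repeated spots.

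The genes were also counted past a difference of 0.32 on the log2 scale, a small step suited to bright genes. Ndufa4 alone passed it toward females, and 0 genes of the set passed it toward males. Over all genes 3.93% passed it toward females and 5.47% toward males. No gene of the set reached 1.5-fold or 2-fold, where the shares over all genes were 0.893% and 0.109% toward females and 1.58% and 0.424% toward males. Bright genes vary less on arrays, and 72 of the 85 genes lay above the 75th percentile on both arrays. Their median absolute difference was 0.036, against 0.059 over the 3603 other genes that lay above it on both arrays, of which 19 passed 0.32 toward females and 59 toward males. Between the lower and upper quartiles of the set's own levels, the median absolute difference was 0.047 in 43 genes of the set and 0.054 in 1110 other genes, so that at a like level the set and other genes were close.

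**Figure D1:**
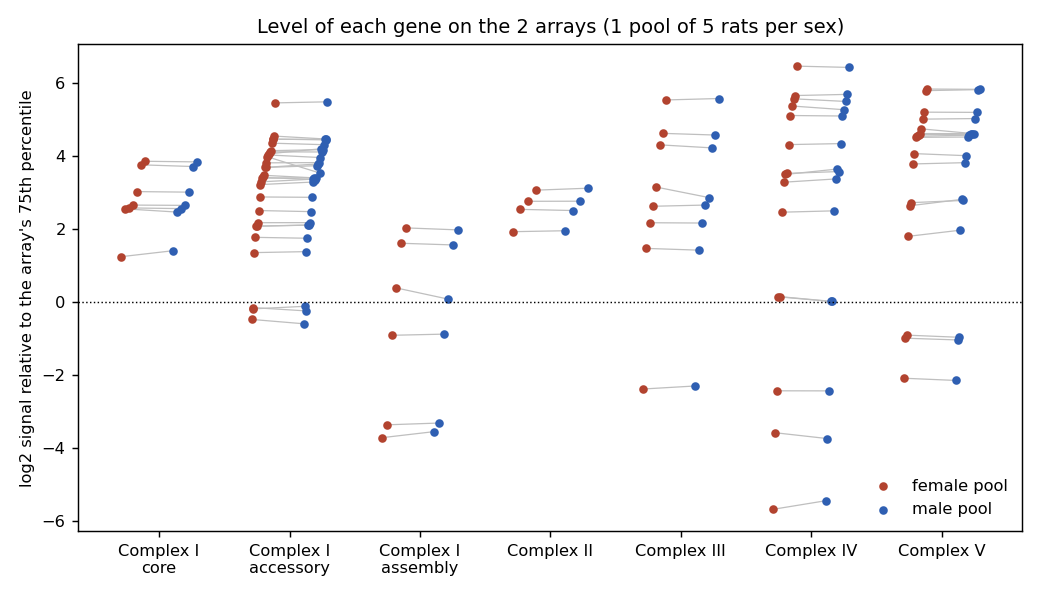
Level of each of the 85 measured genes in females (left mark of each pair) and in males (right mark), as log2 signal relative to the array's 75th percentile, by complex, with a line joining the marks of 1 gene. Nearly all lines are flat, and most genes lie above 0, the 75th percentile of the array.

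**Figure D2:**
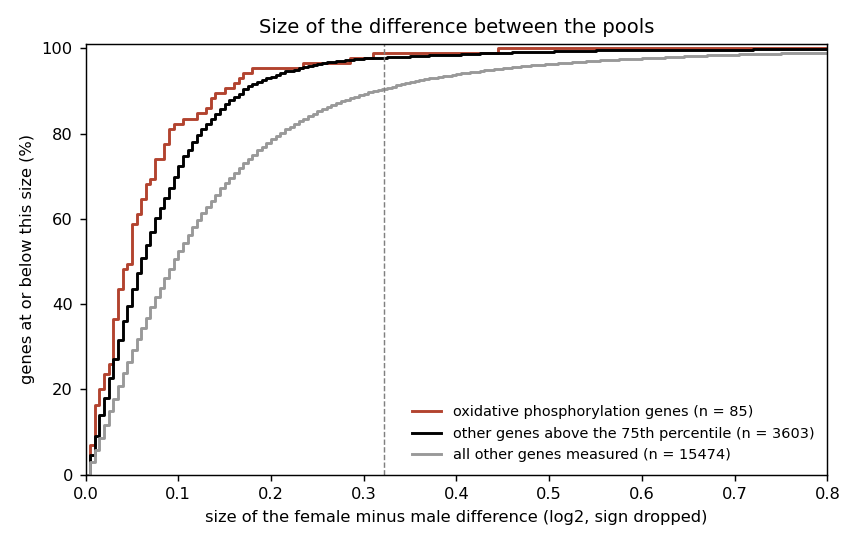
Share of genes (vertical axis, percent) whose female minus male difference, with the sign dropped, is at or below the size on the horizontal axis (log2), for the 85 genes of the set, the 3603 other genes above the 75th percentile on both arrays and all 15474 other genes. At a size of 0.05 the curve of the set stands at 58.8%, that of other bright genes at 43.6% and that of all other genes at 29.2%, and the dashed line marks 0.32.

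The start regions of the genes were searched for short sequence patterns, which the choice by name did not use. Nuclear respiratory factor 1 (NRF1), GABP (also called NRF2), YY1 and the estrogen-related receptors (ERR) are known regulators of nuclear genes for mitochondrial proteins. A window of 300 bases, from 250 before to 50 after the annotated start, was found in RefSeq (GRCr8) for 72 of the 86 genes. In all, 12 patterns were searched on both strands. For NRF1 they were its palindromic consensus with 1 free base, the single form of it with that base fixed, and the shorter CATGCGC. For GABP the pattern was CCGGAAG, and for the wider ETS family its core CGGAAG. YY1 was searched by AAGATGGC and by a longer form that begins with it, and ERR by AAGGTCA and by TGACCTTG, which overlaps its reverse complement. The general promoter patterns were CCAAT for NF-Y, TATAAA for TBP and GGGCGGG for Sp1. The forms for 1 factor overlap each other, so they are not separate observations.

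The NRF1 consensus was in 15 of the 72 windows (20.8%), in 7.81% of the 13228 windows of other genes measured and in 4.25% of all 33469 windows. The GABP pattern was in 27.8% of the windows of the set, 14.3% of those of other genes measured and 8.75% of all windows. The YY1 pattern AAGATGGC was in 19.4% of the windows of the set, 4.32% of those of other genes measured and 3.17% of all windows. The ERR pattern AAGGTCA was in 13.9% of the windows of the set, 3.22% of those of other genes measured and 4.61% of all windows. Of the 12 patterns 9 were more frequent in the set than in other genes measured. The other 3 were not: CCAAT was in 30.6% of the windows of the set and 36.7% of those of other genes measured, GGGCGGG in 22.2% and 39.9%, and TATAAA in 8.33% and 9.18%. A match is a run of letters and not a shown binding site, and the sets of windows were not matched for base composition. Genes with and without a match both had medians near 0: the median difference was 0.0080 in the 15 genes with the NRF1 consensus and -0.010 in the 56 without it, -0.0059 in 20 with and -0.0093 in 51 without the GABP pattern, and -0.021 in 14 with and -0.0020 in 57 without the YY1 pattern.

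**Figure D3:**
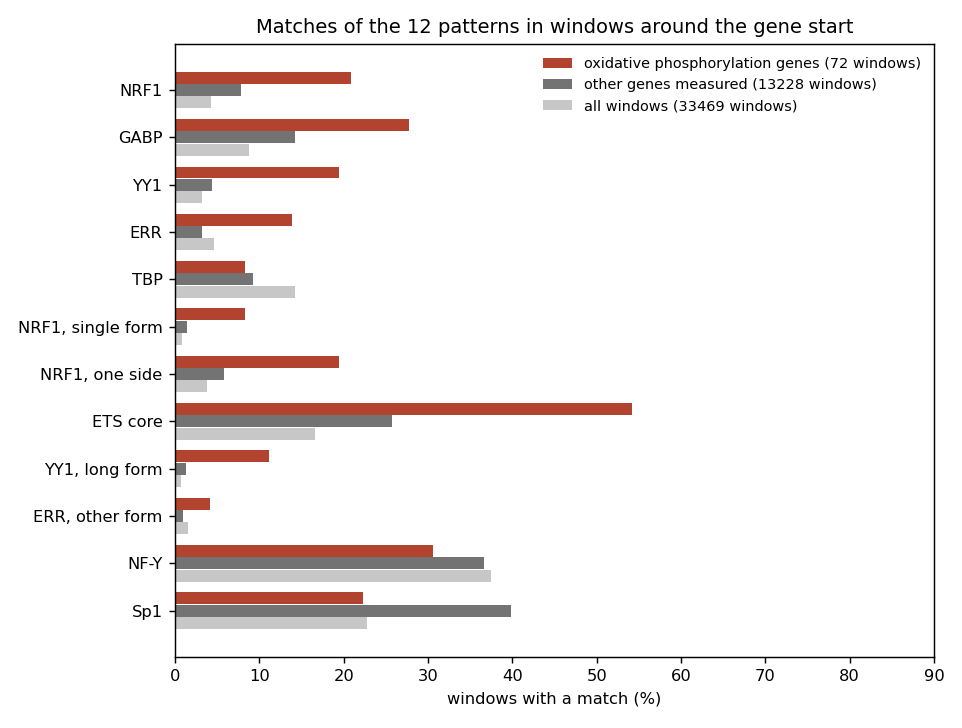
Share of 300-base windows around the gene start with at least 1 match (horizontal axis, percent) for each of the 12 patterns searched, in the genes of the set, in other genes measured and in all windows. Bars of the set are the longest for 9 patterns and not for TBP, NF-Y and Sp1.

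Windows of 4 genes are printed to show the range, and they were picked after their matches and differences had been seen. Ndufa4 and Uqcrc1 have the largest and the third largest differences of the set, Sdha holds the NRF1 consensus 3 times, and Cox6a2 is a muscle isoform. Capitals mark matches of the NRF1 consensus on either strand and of the YY1 pattern AAGATGGC. The window of Ndufa4 is chr4:40975510-40975809 on the minus strand, that of Uqcrc1 chr8:118467973-118468272 on the plus strand, that of Sdha chr1:30764303-30764602 on the plus strand and that of Cox6a2 chr1:192219667-192219966 on the minus strand. Those of Ndufa4 and Cox6a2 hold neither of these, nor CCGGAAG for GABP, AAGGTCA for ERR and TATAAA for TBP.
Ndufa4: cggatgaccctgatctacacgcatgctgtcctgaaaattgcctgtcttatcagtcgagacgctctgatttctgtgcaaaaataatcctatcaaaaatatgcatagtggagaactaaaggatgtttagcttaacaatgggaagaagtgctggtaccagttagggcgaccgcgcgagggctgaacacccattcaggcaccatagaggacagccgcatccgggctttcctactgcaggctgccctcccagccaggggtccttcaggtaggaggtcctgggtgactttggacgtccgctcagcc
Uqcrc1: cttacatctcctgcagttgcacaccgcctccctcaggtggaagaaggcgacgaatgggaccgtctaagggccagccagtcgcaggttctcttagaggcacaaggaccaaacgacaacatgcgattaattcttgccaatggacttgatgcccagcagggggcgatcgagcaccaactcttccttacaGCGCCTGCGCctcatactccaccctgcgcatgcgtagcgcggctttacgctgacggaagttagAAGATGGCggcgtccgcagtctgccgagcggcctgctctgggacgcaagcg
Sdha: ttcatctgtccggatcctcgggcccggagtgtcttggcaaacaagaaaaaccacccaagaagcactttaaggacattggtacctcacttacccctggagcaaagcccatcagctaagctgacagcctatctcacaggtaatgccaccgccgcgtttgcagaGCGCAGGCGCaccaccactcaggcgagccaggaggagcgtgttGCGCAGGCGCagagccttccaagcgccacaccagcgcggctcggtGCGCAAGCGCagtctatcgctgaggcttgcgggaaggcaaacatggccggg
Cox6a2: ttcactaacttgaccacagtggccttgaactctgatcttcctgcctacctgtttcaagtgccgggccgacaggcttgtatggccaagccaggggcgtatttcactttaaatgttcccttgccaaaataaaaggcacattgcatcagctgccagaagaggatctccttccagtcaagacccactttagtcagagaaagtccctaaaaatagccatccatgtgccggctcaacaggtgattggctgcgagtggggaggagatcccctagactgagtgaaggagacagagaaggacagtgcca

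In complex I, the 7 core subunits encoded in the nucleus carry the electron path from NADH to ubiquinone. Of these 6 were higher in females and 1 in males, with a median of 0.017. Ndufs8, which holds iron-sulphur clusters of the peripheral arm, had a signal of 7997 in females and 9123 in males, levels of 1.24 in females and 1.41 in males, a difference of -0.16. The iron-sulphur subunits Ndufv2 and Ndufs1 differed by 0.047 and 0.019. Ndufs8, which rests on 1 spot, lay further from 0 than the spot SD of 0.068, but moved to -0.072 with normexp background correction. Ndufv2 and Ndufs1 lay within the SD of 0.068, although the 10 spots of Ndufv2 had a smaller SD of their own, 0.014.

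The 28 accessory genes, which surround the core and stabilise it, divided evenly with 14 higher in each pool and a median of -0.00083. Ndufa4 stood apart. It was first counted with complex I and is now known as a subunit of complex IV. Its signal was 53460 in females and 40024 in males, levels of 3.98 in females and 3.54 in males, a difference of 0.44. The value rests on 1 spot, and the 50 nearest bright spots had a median of -0.070, on the other side of 0. The next largest were Ndufb2, a membrane arm subunit, at -0.14 with signals of 56704 in females and 63388 in males, Ndufa7 at 0.12 and Ndufb6 at -0.094. The other accessory genes lay between -0.071 and 0.089. The 3 X-linked genes, Ndufa1, Ndufb11 and the complex IV gene Cox7b, differed by 0.0036, -0.049 and -0.050.

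The 6 assembly factors of complex I, which help build it and leave, had 3 genes higher in each pool and a median of 0.0080. Ndufaf6 had a signal of 4412 in females and 3627 in males, levels of 0.38 in females and 0.076 in males, a difference of 0.31 just under the line at 0.32. Its 1 spot lay in the bands of array rows where dim spots were more often brighter on the male array, and its 50 nearest bright spots had a median of 0.017. Ndufaf3, Ndufaf1 and Ndufaf5 differed by 0.055, -0.049 and 0.046. Of the 4 probes of Ndufaf4, 3 were measured, with differences of -0.17, -0.030 and -0.011.

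Complex II, which is also an enzyme of the citric acid cycle, had 1 gene higher in females and 3 in males. The flavoprotein gene Sdha differed by -0.054, with signals of 28333 in females and 29937 in males. The iron-sulphur subunit gene Sdhb differed by -0.0026, and the membrane anchors Sdhc and Sdhd by -0.026 and 0.032. All 4 lay within the spot SD of their brightness.

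Complex III had 5 genes higher in females and 3 in males, with a median of 0.027. Uqcrc1, a core subunit on the matrix side, had signals of 30021 in females and 25084 in males, levels of 3.15 in females and 2.87 in males, a difference of 0.28. Its 1 spot lay in the same noted bands, its 50 nearest bright spots had a median of 0.086, and with that removed the difference was 0.20. The small subunits Uqcrq, Uqcr11 and Uqcrb differed by -0.083, 0.083 and 0.048. The 3 probes of Uqcr11 ranged from -0.0042 to 0.093, and the lowest is the one outside the noted bands. Uqcrh, the hinge protein, had levels of 4.63 in females and 4.58 in males.

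Complex IV is where the tissue isoforms lie. Its 15 measured names had 8 higher in females and 7 in males, with a median of 0.0016 that is the value of the pseudogene Cox6c-ps1 itself. Without the pseudogene, 7 genes were higher in females and 7 in males, with a median of -0.0068. Cox4i1, the general form of subunit 4, had levels of 5.57 in females and 5.50 in males, and Cox4i2, the lung-enriched form, 0.14 in females and 0.014 in males, a difference of 0.13. For subunit 6a, the general form Cox6a1 had levels of 6.47 in females and 6.44 in males. Its muscle form Cox6a2 had levels of -3.59 in females and -3.75 in males, a difference of 0.16, with a low but measured signal of 281 in females and 256 in males.

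For subunit 8, the general Cox8a had levels of 5.66 in females and 5.70 in males. The muscle form Cox8b had signals of 65.5 in females and 78.4 in males, which is -0.23 on the log2 scale where repeated spots have an SD of 0.15. The testis form Cox8c had no signal well above background in females or males. The testis form of subunit 6b, Cox6b2, was measured at levels of 2.46 in females and 2.50 in males. Muscle markers did not move 1 way: 7 of 17 measured genes were higher in females, with a median of -0.044 and summed signals of 4.41 in females and 4.47 in males. Of 12 germ cell markers on the array 4 were measured, 3 of them higher in females, with summed signals of 0.091 in females and 0.10 in males. Their part in the isoform values was not tested.

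Among the other complex IV genes, Cox5a, a nuclear-encoded subunit on the matrix side, differed by -0.15, with signals of 38192 in females and 43111 in males and its 1 spot in the noted bands. Cox7a2 differed by -0.090, its 2 probes by -0.15 and -0.028, and the supercomplex factor gene Cox7a2l by -0.028. Higher in females were Cox7c, at 0.13 on 1 spot in the noted bands, Cox6c at 0.10 and Cox5b at 0.014. No array probe was found under the names Cox7a1, Cox7b2, Cox8h, Ndufa4l2 or Uqcrhl, so these genes were not analysed.

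**Figure D4:**
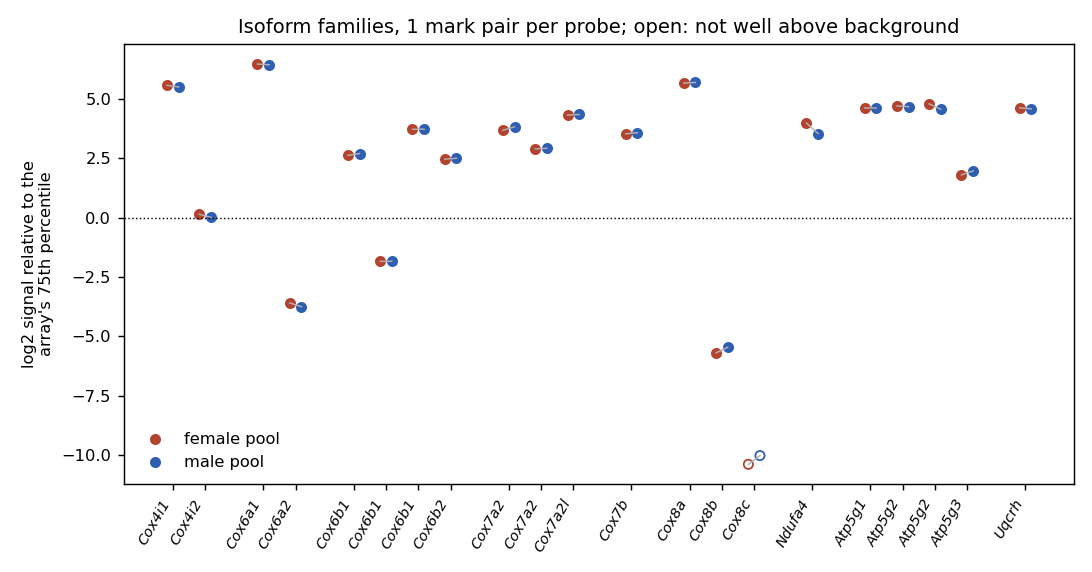
Level of each probe of the isoform families in females (left mark of each pair) and in males (right mark), as log2 signal relative to the array's 75th percentile. Open marks, those of Cox8c, were not well above background, and levels of different probes are not to be ranked against each other.

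Complex V had 8 genes higher in females and 9 in males, with a median of -0.0092. Atp5b, the catalytic beta subunit, had signals of 21066 in females and 24214 in males, a difference of -0.18. This value is the mean of 10 spots whose differences had an SD of 0.033. Atp5g1, Atp5g2 and Atp5g3 encode the same mature subunit c, which forms the rotating ring, and differed by 0.0028, 0.13 and -0.17. Atp5g3 had signals of 11775 in females and 13474 in males on 1 spot, and its difference was -0.075 with normexp. The 2 probes of Atp5g2 gave 0.031 and 0.23. Atp5s, at 0.061, now has the name Dmac2l, and Atp5sl, at 0.048, the name Dmac2, and neither is a name of a synthase subunit.

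Repeated spots and repeated probes show the error within an array. The 13 genes whose only probe was spotted 10 times had a median difference of -0.0068, from -0.18 to 0.072, with SDs over spots of 0.014 to 0.15. In 6 of them the difference was within 1 such SD, and in 2, Atp5b and Ndufv2, it was larger than 2. These are SDs of single spots, and the error of a mean over 10 spots is smaller, so these counts do not mark which differences exceed it. In the 18 genes with several measured probes, the lowest and the highest female minus male difference lay a median of 0.091 apart, and at most 0.20, in Atp5g2. Their levels could be much further apart: the 2 probes of Atp5d stood 9.0 apart, those of Ndufab1 6.7 and those of Cox6c-ps1 6.6, against 0.010 in Atp5g2. The level of such a gene, and the spot SD set beside it, come from the median over its probes and can be near neither probe. Of the 85 measured genes, 54 rest on 1 spot.

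Neighbouring pathways had medians near 0. Of 46 other assembly factors and electron carrier genes 21 were higher in females, with a median of -0.011, and the largest differences were those of Coq4 at -0.22, Higd1a at 0.21 and Uqcc3 at -0.21. The 21 citric acid cycle genes had a median of -0.023, and 6 of them were higher in females, among them Idh3a at 0.29 and Suclg2 at 0.11. The 15 higher in males included Mdh2 at -0.10 and Suclg1 at -0.087. Of 18 glycolysis genes 9 were higher in females, with a median of 0.0012, and the largest differences were those of Pfkl at 0.29, Hk1 at -0.25 and Pkm at -0.23.

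Of 20 measured regulators of mitochondrial biogenesis 5 were higher in females and 15 in males, with a median of -0.035. The largest were Esrrg, an estrogen-related receptor, at -0.62 with levels of -7.35 in females and -6.74 in males, where the spot SD is 0.31, then Ppargc1b at -0.21 and Ppargc1a at -0.19, both coactivators of mitochondrial genes. The 94 genes named as cytosolic ribosomal proteins or as copies of them had a median of -0.0094, and their largest differences were in copies, Rpl10l at 1.07, Rpl39l1 at 0.96 and Rpl37al3 at -0.89. Rpl39l1 was dim, at levels of -6.86 in females and -7.82 in males, where the spot SD is 0.31. The 70 mitochondrial ribosomal protein genes had a median of 0.0012, and their largest differences were those of Mrpl43 at -0.34, Mrpl38 at 0.32 and Mrps2 at 0.22. Mrpl43 had levels of -4.75 in females and -4.41 in males, where the spot SD is 0.15.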

How the data were processed

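RNA of the NTS was measured in 2 pooled samples, 1 per sex, on Agilent single-colour arrays. The processed signal deposited for each array was background-subtracted and detrended within the array by Agilent Feature Extraction, with no scaling between arrays. The version was 10.7.3.1 per the file headers and 9.1 per the submitters' processing notes. Per the file headers the array's positions are of rn4. A deposited value table of the same intensity values was a constant multiple of the processed signal within each array, with medians of 27.3 for the female array and 28.0 for the male array, and served as an alternative.

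Computed here were the log2 signal minus the 75th percentile over rat spots, the mean over spots of a probe and the median over probes of a gene. Control spots and 430 flagged spots were left out, and probes had to be well above background on both arrays, as 87.9% of female and 85.5% of male spots were; none was saturated. The number of arrays limits the precision. Named genes followed a rule: the 4 largest differences of each group, all isoform families, genes past 0.32 and the 3 largest differences of each pathway list. Other genes, such as Ndufaf4, Atp5sl, Cox5b, Cox6c, Cox7c, the X-linked genes, Dbh and Hoxb5, were added after their values were seen. Some genes named by the rule are not reported here. Members, lists, the line at 0.32 and the noted bands (5 of 20 bands of rows, 25.5% of rat spots) were chosen with earlier results of these data known. Symbols of 82 genes were matched to RefSeq (GRCr8). The alternatives were scaling by medians, quantiles or spike-ins, a loess of span 0.3, normexp with an offset of 50 (limma 3.58.1, R 4.3.3), other filters, other folds and updated names. Python 3.11.15, pandas 2.3.3 and statsmodels 0.14.6 were used, and the steps were tested on simulated data.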

Additional observations from a re-analysis of the deposited data

How the results depend on the processing

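Of the alternatives run, scaling by the spike-ins moved every median: it shifted the median of all genes to 0.66, and that of the set to 0.67, with 85 genes higher in females and 85 past 0.32. The medians were then 0.69 for complex I core, 0.67 for accessory, 0.68 for assembly factors, 0.66 for complex II, 0.70 for complex III, 0.67 for complex IV and 0.66 for complex V. Relative to the median of all genes, the set stood 0.017 higher, as under the 75th percentile. That value cannot change under spike-in or median scaling, which shift every gene of an array alike, nor beyond rounding and filtering with the deposited value table. Over all settings run the set stood between 0.0050 and 0.031 higher. Without the spike-ins the median of the set lay between -0.0036 and 0.038 so its sign is not settled, and the number higher in females was between 41 and 65 of 85 or 86 genes, and 32 of the 70 measured outside the noted bands. The count past 0.32 toward females was 2 under median scaling, the loess and normexp, where Ndufaf6 reached 0.34, 0.32 and 0.33, and 0 at 1.5-fold and at 2-fold; toward males it was 1 with no background filter. Ndufa4 lay between 0.44 and 0.51 without the spike-ins. Normexp took Ndufs8 to -0.072, Atp5g3 to -0.075, Cox8b to -0.16 and Atp5s to -0.013; without the noted bands Uqcr11 was -0.0042, and the brightest probe gave 0.031 for Atp5g2. The cause was not tested. Removing the median of neighbouring spots and leaving out Cox6c-ps1, Atp5s and Atp5sl, which gave a median of 0.0016 for the set, were chosen after seeing the data. No paired analysis was possible because each sex has 1 array. Only spots above background are read, and dim probes have the larger spot SD.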

Other observations

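The array also carries 13 probes placed on the mitochondrial genome by its own coordinates, which are outside the set. Of the 12 in forward orientation 10 were higher in females, with a median of 0.026 and a range of -0.075 to 0.16, at levels of 3.91 to 7.36 in females and 3.89 to 7.20 in males. Among all genes measured 45.7% were higher in females. The spot SD at this brightness was 0.068, and the values higher in females went down to 0.00062, so the count of 10 rests in part on differences smaller than that SD. The probes with differences of 0.051, 0.0099 and 0.00062 also lay in the noted bands. The 1 probe in reverse orientation had levels of -0.29 in females and 0.16 in males, a difference of -0.45.

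Genes of the same families under other array names were also measured. Atp5if1, the inhibitor of the ATP synthase, differed by -0.16, Ndufaf8 by -0.083, Ndufb11b by -0.081, Atp5mk by -0.045, Ndufa13 by 0.039 and Cox6b1, the general form of subunit 6b, by -0.0059. Ndufb11b was dim, at levels of -6.12 in females and -6.04 in males, where the spot SD is 0.31.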
